A study of Rattus norvegicus with 11 samples.

Results

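The pyruvate dehydrogenase complex and its kinases were described in soleus muscle of rats whose mothers had eaten a high-fat or a control diet. The set held 8 genes, chosen by symbol from the 16810 genes of the count table. They were the 4 kinases Pdk1, Pdk2, Pdk3 and Pdk4 and the 4 catalytic subunits Pdha1, Pdhb, Dlat and Dld. All 8 were present and passed the filter on low counts, which kept 10814 genes.

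RNA was measured in 11 male Sprague Dawley offspring aged 12 months, each from its own litter. In the high-fat group (5 animals) the mothers ate a diet given in the labels as 23.3% or 23.5% fat with 20% sucrose. In the control group (6 animals) the mothers ate chow given as 6% or 7% fat with 10% sucrose. The mothers were on these diets from 3 weeks ahead of mating until the pups were weaned. All offspring went onto standard chow at weaning on day 21 and were fasted for 1 to 2 hours before sampling, so the animals' own adult diet was the same in both groups. The soleus is a postural calf muscle made mainly of slow, oxidative fibres.

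The pyruvate dehydrogenase complex sits in the mitochondrial matrix and turns pyruvate from glycolysis into acetyl-CoA for the tricarboxylic acid cycle. The kinases phosphorylate its E1 alpha subunit and switch the complex off, and a pair of phosphatases switches it back on. In muscle, Pdk4 transcription is known to climb in fasting, with fatty acids and with glucocorticoids, and to be held down by insulin, so the balance of kinase to complex helps set whether a muscle burns glucose or fat.

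Counted reads per library numbered 10.2 to 15.4 M (M, mega), on average 12.9 ± 2.24 M in high-fat animals and 12.7 ± 1.83 M in controls (SD, n = 5 and 6). Summed slow fibre markers ran from 55280 to 78550 counts per M counts (CPM, scaled between libraries by edgeR's trimmed-mean method, TMM) in high-fat animals and from 59060 to 80140 CPM in controls and were above the fast fibre sum in every library. The fast fibre sums varied widely, from 3327 to 26900 CPM in high-fat animals and from 1960 to 35240 CPM in controls, and all 8 fast fibre markers had diet values below 0 (median log2 fold change -0.79, none at an unadjusted p under 0.05). The part of fibre makeup in the results below was not tested. The summed neutrophil markers S100a8 and S100a9 stood apart in a pair of libraries, with 49.1 CPM for high-fat animal 4 and 27.5 CPM for high-fat animal 1, against 1.96 to 7.92 CPM for the other 9. Of 6 macrophage markers listed, 5 had a row and were detected, with sums of 76.0 to 466 CPM in high-fat animals and 83.6 to 232 CPM in controls. All 5 had diet values above 0 (median log2 fold change 0.67), where 50.9% of all genes were. Of these, 2 were at an unadjusted p under 0.05, where 3.45% of all genes were. In bulk muscle, fewer cells of a type and less RNA per cell cannot be told apart.

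The proximal promoters of Pdk4 and Pdk2 are printed here because Pdk4 was the member that varied most among the animals and Pdk2 is the kinase it is set against below. Both are RefSeq sequences of 300 bases around the annotated transcript start on assembly GRCr8, and all 8 members matched this table by symbol. Capitals mark motif letters found by a search of both strands. In Pdk4 (chr4:34568280-34568579, minus strand) they are the NF-Y motif CCAAT, read as ATTGG 153 bases before the start, and the Sp1 motif GGGCGG at 95 bases before and, as CCGCCC, 33 bases after it.
Pdk4: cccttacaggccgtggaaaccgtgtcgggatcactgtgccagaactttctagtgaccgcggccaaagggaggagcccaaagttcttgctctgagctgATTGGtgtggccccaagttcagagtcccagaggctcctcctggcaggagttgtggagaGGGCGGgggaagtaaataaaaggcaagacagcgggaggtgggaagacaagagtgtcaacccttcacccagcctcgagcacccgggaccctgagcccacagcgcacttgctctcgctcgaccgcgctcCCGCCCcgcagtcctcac
In Pdk2 (chr10:80483863-80484162, minus strand) they are the E-box CACGTG, 143 bases before the start, and 3 copies of ATTGG.
Pdk2: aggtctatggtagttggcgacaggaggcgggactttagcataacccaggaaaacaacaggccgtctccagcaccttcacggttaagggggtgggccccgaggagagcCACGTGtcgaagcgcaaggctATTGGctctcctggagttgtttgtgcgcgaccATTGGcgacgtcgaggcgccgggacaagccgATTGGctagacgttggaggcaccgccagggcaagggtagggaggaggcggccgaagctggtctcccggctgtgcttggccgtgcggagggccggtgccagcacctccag
Of 33469 rat promoters of this length, 37.5% held CCAAT, 33.1% held GGGCGG and 6.42% held CACGTG. Of the other strings searched, the hypoxia response core ACGTG, which lies within CACGTG, was in 19.3% of all promoters and in 5 of the 8 members (Dlat, Pdhb, Pdk1, Pdk2 and Pdk3). The core of the glucocorticoid receptor element TGTTCT was in 20.7% of all and in Dld alone among the members, and the nuclear receptor core AGGTCA in 16.2% and in Dlat and Pdhb. The TATA box letters TATAAA, on either strand and at any place in the window, were in 14.2% and in Dld. The Dld match was on the opposite strand, as TTTATA 211 bases before the start. The FOXO motif GTAAACA was in 3.78% and in Pdhb. A match in letters is not a bound site, and no match covers this window only.

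Pdk4, the kinase induced by fasting, was spread over a wide range of levels and was highest in a pair of high-fat animals. Its level was 446 CPM for high-fat animal 4, 299 CPM for high-fat animal 1, and 113, 95.6 and 80.7 CPM in high-fat animals 2, 5 and 3. The 6 controls ran from 90.6 to 188 CPM with a median of 108 CPM. The pair of highest animals therefore lay above every control, while the other 3 high-fat animals lay within or just under the control range, so the groups overlapped. High-fat animals averaged 207 ± 160 CPM and controls 122 ± 38.1 CPM (SD, n = 5 and 6), and 2 of 5 high-fat animals were above the control mean. The log2 fold change of high-fat over control was 0.77 ± 0.41 (SE), with a Benjamini-Hochberg adjusted p of 0.974 (unadjusted 0.0838) in the quasi-likelihood test of edgeR. High-fat animal 4 carried much of that value: without it the fold change was 0.27, and without high-fat animal 3 it was 0.97.

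No member was called by maternal diet at an adjusted p under 0.05, and neither was any gene (percent called 0). At an unadjusted p under 0.05, 4.84% of all genes passed (523 of 10814), and 1 of the 8 members did. DESeq2 called 7 genes and limma voom called 0, with no member among them. No member had groups that did not overlap, a pattern seen in 0.37% of genes.

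**Figure D1:**
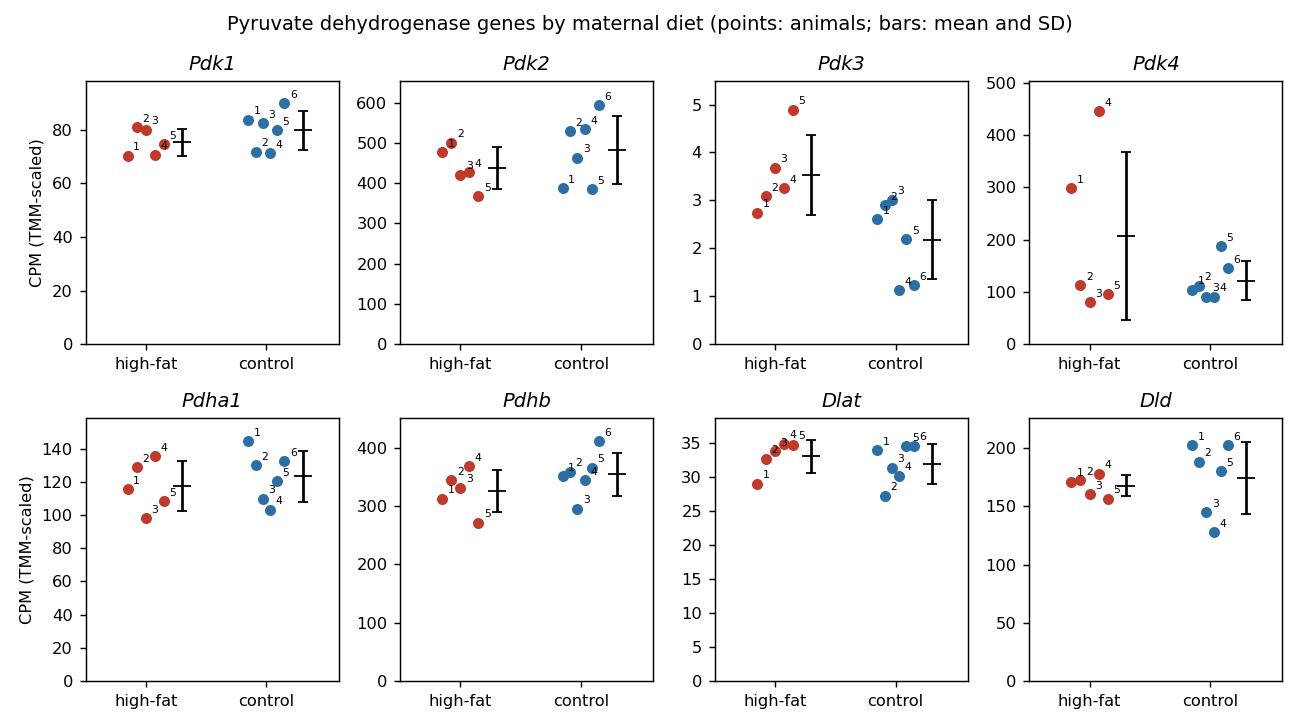
Level of each of the 8 genes (TMM-scaled CPM, linear axes from 0) in every animal, high-fat left and control right, with the animal's number beside its point and bars for mean and SD. The groups overlap in every panel, Pdk4 has high-fat animals 4 and 1 at 446 and 299 CPM above all controls, and the subunits vary little.

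Pdk3, a kinase known for a low sensitivity to inhibition by pyruvate, was the member with the smallest unadjusted p by diet. It was scarce, with 12 to 82 counted reads per library. Its level was 2.75, 3.09, 3.69, 3.25 and 4.90 CPM in high-fat animals 1 to 5, and the controls ran from 1.13 to 3.01 CPM with a median of 2.40 CPM. All 5 high-fat animals were above the control mean of 2.18 ± 0.824 CPM (SD, n = 6), their own mean was 3.53 ± 0.832 CPM (SD, n = 5), and high-fat animal 1 lay inside the control range. The log2 fold change was 0.70 ± 0.28 (SE) with an unadjusted p of 0.027 and an adjusted p of 0.974 in edgeR's quasi-likelihood test. Leaving out any one animal gave 0.55 to 0.81. High-fat animal 5, which had the highest Pdk3, also had the highest macrophage marker sum (466 CPM) and the lowest slow fibre sum (55280 CPM). High-fat animal 2 had the lowest macrophage marker sum (76.0 CPM), and its Pdk3 lay above every control. The part of fibre and cell makeup in the Pdk3 value was not tested.

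Pdk2, the most widely expressed isoform, and Pdk1, a target of the hypoxia factor HIF-1, had group means that differed by less than the spread between animals. Pdk2 was at 477, 500.3, 421, 427 and 368 CPM in high-fat animals 1 to 5, and between 384 and 594 CPM with a median of 496 CPM in controls. Its log2 fold change was -0.14 ± 0.14 (SE). Pdk1 was at 70.4, 81.0, 80.0, 70.7 and 74.7 CPM in high-fat animals 1 to 5, and between 71.3 and 90.0 CPM with a median of 81.1 CPM in controls. Its log2 fold change was -0.08 ± 0.09 (SE). For both kinases the groups overlapped, with the highest value in control 6.

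The subunits of the complex were steadier than the inducible kinase. Pdha1 encodes the E1 alpha subunit that the kinases phosphorylate, and it averaged 117 ± 15.1 CPM in high-fat animals and 123 ± 15.3 CPM in controls (SD, n = 5 and 6). Pdhb, the E1 beta subunit, averaged 326 ± 36.6 CPM in high-fat animals and 355 ± 37.3 CPM in controls, with the lowest value of all animals, 272 CPM, in high-fat animal 5. Dlat, the E2 core that carries the lipoyl arms and docks the kinases, averaged 33.0 ± 2.41 CPM in high-fat animals and 31.9 ± 2.94 CPM in controls. Dld, the E3 subunit shared with the 2-oxoglutarate and branched-chain complexes, averaged 168 ± 8.91 CPM in high-fat animals and 174 ± 31.2 CPM in controls. Its controls ran from 128 to 203 CPM and enclosed all 5 high-fat values. The 4 log2 fold changes were -0.07 ± 0.11 for Pdha1, -0.12 ± 0.11 for Pdhb, 0.05 ± 0.09 for Dlat and -0.06 ± 0.12 for Dld (SE).

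Across all 11 animals the coefficient of variation was 71.0% for Pdk4, higher than that of 97.9% of the genes tested, and 37.8% for Pdk3, which also carries the counting noise of its low counts. It was 15.6% for Pdk2 and 8.28% for Pdk1. The subunits ran from 8.13% for Dlat to 13.4% for Dld, below the 18.7% median of all genes tested.

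The balance of kinase to complex was taken in each animal as the log2 level of a kinase minus the mean log2 level of the 4 subunits. It is given as a description, with no test, and its zero has no meaning because transcript lengths were not used. For Pdk4 it averaged 0.44 ± 1.03 in high-fat animals and -0.08 ± 0.34 in controls (SD, n = 5 and 6), a difference of 0.52 that ran from 0.20 to 0.76 when any one animal was left out. For Pdk3 it averaged -5.06 ± 0.36 in high-fat animals and -5.82 ± 0.60 in controls, a difference of 0.77. For Pdk2 the difference was -0.08 and for Pdk1 -0.04. Over the 11 animals the log2 level of Pdk4 spanned 2.46, against 0.56 for Pdha1, 0.60 for Pdhb, 0.36 for Dlat and 0.67 for Dld. Without high-fat animals 4 and 1 the span of Pdk4 was 1.21. Pdk4 minus Pdk2 averaged -1.42 ± 1.06 in high-fat animals and -2.02 ± 0.54 in controls.

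**Figure D2:**
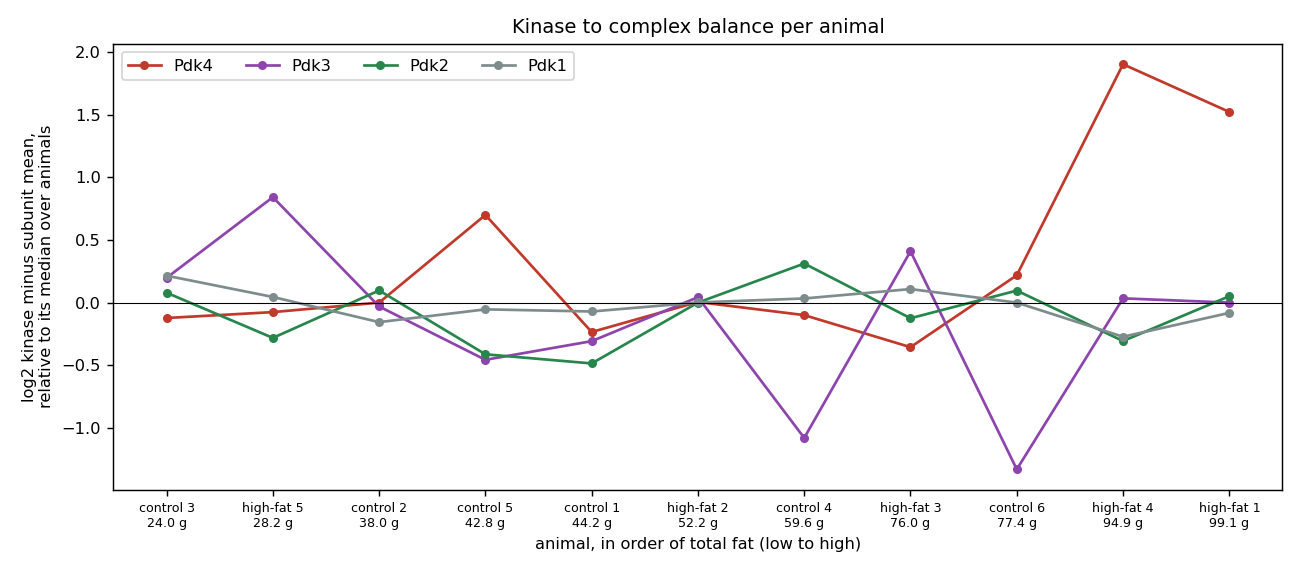
Log2 level of each kinase minus the mean of the 4 subunits, shown relative to that kinase's median over the 11 animals, with animals ordered by total fat in g from low (left) to high (right). Lines join the values of one kinase and stand for no time course. Pdk4 stands far above its median in the 2 fattest animals, high-fat 4 and 1, and Pdk3 is lowest in controls 4 and 6.

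The labels also give the weight of 3 fat depots for each animal and plasma insulin for 10 animals. This allows the members to be read against the offspring's own metabolic state. Total fat is the sum of the perirenal, abdominal and mesenteric depots, and ran from 28.2 to 99.1 g in high-fat animals and from 24.0 to 77.4 g in controls. Insulin ran from 1.566 to 2.652 ng/ml in the 4 high-fat animals with a value and from 1.357 to 2.076 ng/ml in controls. Slopes were fitted over all animals, whatever the mother's diet, with edgeR's quasi-likelihood test. Summed adipocyte markers of the muscle (Adipoq, Plin1, Cidec, Lep, Lipe and Cfd) also varied. They ran from 215 to 539 CPM in high-fat animals and from 156 to 546 CPM in controls. Of these 6 genes, 1 had a total fat slope above 0, where 47.4% of all genes were. The part of fat cells in the slopes below was not tested.

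Pdk4 had the steepest slope of the 8 members on each of these measures. Its slope was 0.23 ± 0.06 log2 units per 10 g of total fat (SE, n = 11), with an unadjusted p of 0.00152, the 49th smallest of 10814 genes, and an adjusted p of 0.335. Against fat as a share of body weight the slope was 0.17 ± 0.05 per percentage point, with an unadjusted p of 0.00371 and an adjusted p of 0.391. Against insulin it was 1.12 ± 0.39 per ng/ml over 10 animals, with an unadjusted p of 0.0142 and an adjusted p of 1. With the mother's diet as a covariate the total fat slope was 0.23 (unadjusted p 0.0105) and the insulin slope was 0.90 (unadjusted p 0.201).

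No member was called on any of the 3 measures. Genes called made up 0% of those tested for insulin, 0% for total fat and 0.00925% (1 gene, Pnpla2, the adipose triglyceride lipase) for the fat share. At an unadjusted p under 0.05 the shares of all genes were 3.48% (377 genes), 8.29% (896 genes) and 8.64% (934 genes), and 1 of the 8 members, Pdk4, passed on each measure. DESeq2 called 6, 44 and 62 genes and limma voom called 0, 0 and 2, with no member among them. The smallest adjusted p of Pdk4 under any alternative tool or scaling was 0.0514, from DESeq2 for total fat.

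High-fat animals 4 and 1 weighed heavily in the slopes of Pdk4. Leaving out any one animal gave slopes of 0.15 to 0.25 per 10 g of total fat. For fat share these ran from 0.115 to 0.238 per percentage point, and for insulin from 0.47 to 1.52 per ng/ml. No sign changed. Animal 4 had 94.9 g of fat, the highest insulin (2.652 ng/ml), a plasma glucose of 10.98 mmol per litre and the highest Pdk4. Animal 1 had 99.1 g of fat, 2.294 ng/ml insulin and the second highest Pdk4. High-fat animal 3 went the other way, with 76.0 g of fat, 2.566 ng/ml insulin and the lowest Pdk4 of all animals, 80.7 CPM. Control 6, with 77.4 g of fat, had 146 CPM, and control 5, with 42.8 g, had 188 CPM. Without animals 4 and 1, a pair left out after the values were seen, the Pdk4 slope was 0.016 per 10 g of total fat, 0.011 per percentage point of fat share and -0.44 per ng/ml insulin, and the diet fold change was -0.34. The pair held the 2 highest levels of both Pdk4 and total fat, so leaving it out narrows both ranges. A flat slope there cannot show whether Pdk4 follows fat. The pair also had the highest neutrophil marker sums. Fat and those markers therefore cannot be told apart as companions of Pdk4 here, and their part in its level was not tested.

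**Figure D3:**
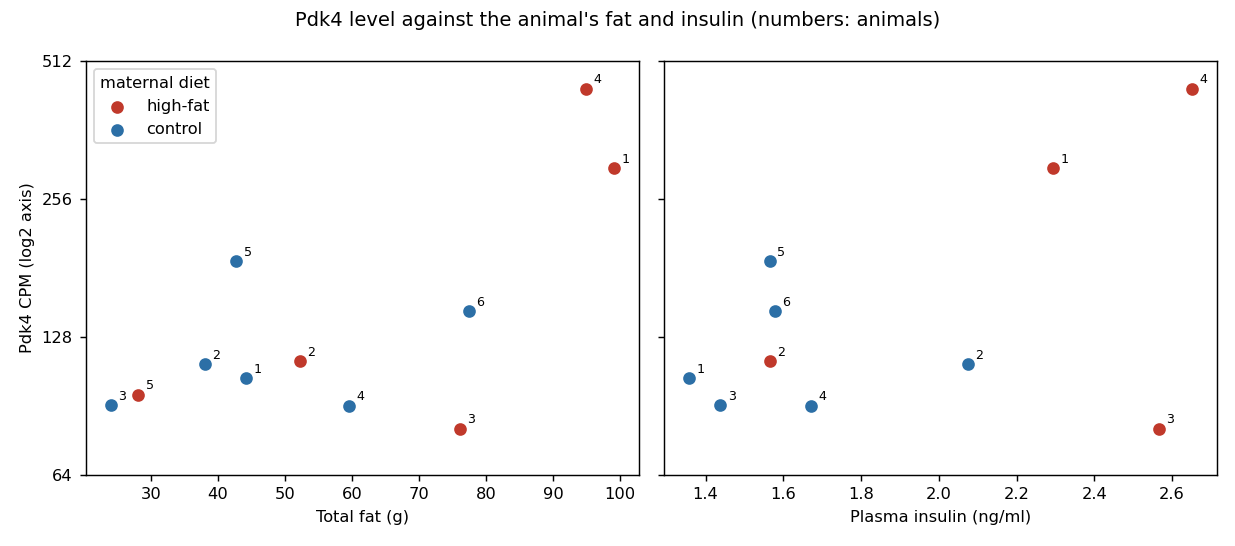
Pdk4 level (CPM, log2 axis) against total fat in g (left, 11 animals) and plasma insulin in ng/ml (right, 10 animals), one numbered point per animal, red for high-fat and blue for control mothers. High-fat animals 4 and 1 lie at the upper right of both panels, and high-fat animal 3 is lowest at 80.7 CPM with 76.0 g of fat and 2.566 ng/ml insulin.

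Within the high-fat group alone the Pdk4 slope was 0.29 ± 0.08 per 10 g of total fat, and within controls it was 0.06 ± 0.12 (SE). The difference of the slopes was 0.22 ± 0.15, with an adjusted p of 0.982 in edgeR's quasi-likelihood test. Pdk3 had slopes of -0.09 ± 0.05 in the high-fat group and -0.29 ± 0.09 in controls, where the fattest animals, controls 6 and 4, had the lowest levels, 1.24 and 1.13 CPM. Its slope over all animals was -0.05 ± 0.06 per 10 g and became -0.14 with the mother's diet as a covariate (unadjusted p 0.0168, adjusted 0.367). Without that covariate the other 6 members had total fat slopes between -0.01 and 0.03 per 10 g. With the mother's diet as a covariate, 3 members had an unadjusted p under 0.05 for total fat: Pdk4, Pdk3 and the subunit Pdhb. In that fit 1314 of 10814 genes passed this mark and 0 genes were called.

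**Figure D4:**
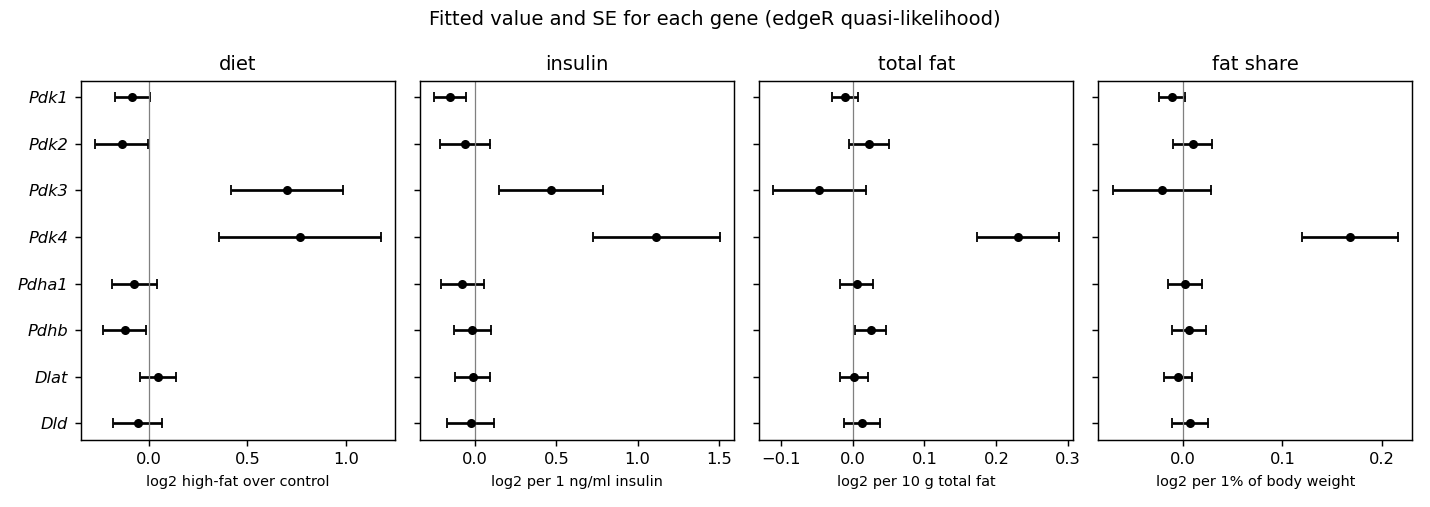
Fitted value and SE of each gene from edgeR, in 4 panels: log2 high-fat over control, log2 per 1 ng/ml insulin, log2 per 10 g total fat and log2 per 1% of body weight as fat. Pdk4 is furthest right in every panel, Pdk3 is next to it by diet and insulin, and Pdk1, Pdk2 and the subunits lie near 0.

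The remaining parts of the complex were measured as well. Pdhx, which anchors E3 to the core, averaged 40.7 ± 4.07 CPM in high-fat animals and 44.1 ± 5.47 CPM in controls (SD, n = 5 and 6). Pdp1, the calcium-stimulated phosphatase of muscle that reactivates the complex, averaged 158 ± 34.9 CPM in high-fat animals and 141 ± 42.0 CPM in controls. Pdp2, the insulin-responsive phosphatase, averaged 14.8 ± 2.56 CPM in high-fat animals and 17.2 ± 3.69 CPM in controls. Pdpr, the regulatory subunit of the phosphatase, averaged 24.8 ± 7.47 CPM in high-fat animals and 19.7 ± 2.26 CPM in controls. For Pdpr high-fat animal 1 was lowest at 12.6 CPM, while the high-fat median was 28.2 CPM and controls ran from 15.8 to 22.1 CPM. With all animals in, none of the 4 was called on any comparison, and none had an unadjusted p under 0.05. In the fit without high-fat animals 4 and 1, 1 of the 4 had a diet value above 0 at an unadjusted p under 0.05, where 2.1% of all genes did. Pdk4 minus Pdp1, a log2 kinase to phosphatase balance, averaged 0.07 ± 1.18 in high-fat animals and -0.20 ± 0.36 in controls.

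The genes around the complex were counted by list, with no gene of any list called by diet, insulin or fat. Among 8 genes of the sister 2-oxoglutarate, branched-chain and glycine cleavage systems, regulators included, 2 of 8 diet values were above 0, where 50.9% of all genes were, and 6 were below 0, where 49.1% were. Bckdhb, the branched-chain E1 beta subunit, had the smallest p (log2 fold change -0.34 ± 0.14 SE, unadjusted p 0.0248). Dlst, the E2 of the 2-oxoglutarate complex, was at -0.16 ± 0.11 by diet (-0.10 without high-fat animal 5), and Bckdha, the branched-chain E1 alpha subunit, had a total fat slope of 0.06 ± 0.03 (0.039 without that animal). For lipoylation, which arms Dlat, 8 of 9 diet values were below 0 and all 9 total fat slopes were above 0, where 47.4% of all genes were, with none at an unadjusted p under 0.05. Fdx1, the ferredoxin that feeds lipoyl synthesis, was at -0.18 ± 0.11 by diet, Lipt1, a lipoyltransferase, at -0.28 ± 0.19, and Nfu1, an iron-sulfur carrier, had a total fat slope of 0.05 ± 0.02. For the tricarboxylic acid cycle, fed by the complex, 13 of 14 diet values were below 0 and all 14 total fat slopes were above 0, again with none at an unadjusted p under 0.05. By diet Idh2 and Idh3a, subunits of the isocitrate dehydrogenases, were at -0.21 ± 0.13 and -0.17 ± 0.11, and Sdhb, a succinate dehydrogenase subunit, had a total fat slope of 0.07 ± 0.03 (0.041 without high-fat animal 5). For pyruvate and lactate supply, 9 of 11 diet values were below 0, among them Pkm, the muscle pyruvate kinase gene, at -0.22 ± 0.13, and Ldha, lactate dehydrogenase A, at -0.32 ± 0.19. Mpc1, a subunit of the mitochondrial pyruvate carrier, had a total fat slope of 0.05 ± 0.02, and Slc16a3, a lactate exporter, had a fat share slope of -0.12 ± 0.06. Without high-fat animals 4 and 1, total fat slopes above 0 at an unadjusted p under 0.05 numbered 3 of 9 for lipoylation, 6 of 14 for the cycle, 4 of 11 for pyruvate and lactate supply and 0 of 8 for the sister systems, where 6.19% of all genes passed.

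Among 18 transcription factors and cofactors of the kinase genes, 10 had diet values above 0, and 5 of them at an unadjusted p under 0.05, where 3.45% of all genes were. One of the 8 below 0 also passed that mark, where 1.39% of all genes did. Ppard, the fatty acid receptor that drives Pdk4 in muscle, was between 32.5 and 56.7 CPM in high-fat animals and between 23.1 and 38.9 CPM in controls (log2 fold change 0.50 ± 0.16 SE, unadjusted p 0.00738, adjusted 0.974 in edgeR's test). All 5 high-fat values lay above the control mean of 30.7 CPM, and the groups overlapped. Nrip1, a corepressor of oxidative genes, was at 0.57 ± 0.23 by diet on the log2 scale, and at 0.22 with high-fat animal 4 left out. Cebpb, a transcription factor of fasting and glucocorticoid programmes, had slopes of 1.02 ± 0.27 per ng/ml insulin and 0.19 ± 0.04 per 10 g of total fat (adjusted p 0.878 and 0.33 in edgeR's test). Cebpb was highest in high-fat animal 4, and without that animal these slopes were 0.38 and 0.10. Without high-fat animals 4 and 1, 2 of the 18 genes had diet values above 0 at an unadjusted p under 0.05, where 2.1% of all genes did.

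Targets of the PPAR receptors and of fasting, the programme Pdk4 belongs to, had total fat slopes above 0 in 23 of 23 genes tested, with 12 at an unadjusted p under 0.05, where 4.26% of all genes were. Their median slope was 0.07 per 10 g, beside -0.002 over all genes tested. Ucp3, a mitochondrial carrier that follows fatty acid load, was at 120 CPM for high-fat animal 4, 101 CPM for high-fat animal 1, and at 20.6 to 53.9 CPM in the other 9 animals (slope 0.22 ± 0.06 SE, adjusted p 0.347 in edgeR's test). Acot2, a mitochondrial acyl-CoA thioesterase, had a slope of 0.14 ± 0.03 (adjusted p 0.335). By diet the smallest p of this list was that of Ucp2, a mitochondrial carrier related to Ucp3, with a log2 fold change of 0.45 ± 0.23 (SE). With high-fat animals 4 and 1 left out, 20 of 23 slopes were above 0 and 11 were at an unadjusted p under 0.05, where 6.19% of all genes were. There Acot2 had a slope of 0.19 and Ucp3 of 0.03, beside 0.016 for Pdk4.

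Genes of the glucocorticoid response had total fat slopes above 0 in 11 of 12, where 47.4% of all genes were above 0. Of these, 9 were at an unadjusted p under 0.05, where 4.26% of all genes were, and the list's median slope was 0.14 per 10 g. The metallothionein gene Mt2A was at 45.4 CPM for high-fat animal 4, 7.91 CPM for high-fat animal 1 and 1.22 to 3.92 CPM for the other 9, so a single animal stood far above the rest (slope 0.54 ± 0.12, and 0.21 without it). Mt1a, another metallothionein gene, was at 2.25 ± 0.73 by diet on the log2 scale (0.66 with high-fat animal 4 left out), and Trim63, a muscle ubiquitin ligase, a fat share slope of 0.14 ± 0.04. Without animals 4 and 1 the Mt2A slope was -0.02, 9 of the 12 slopes were above 0, and 4 were at an unadjusted p under 0.05, where 6.19% of all genes were. Of the 12 clock genes 6 had slopes above 0, and Npas2, a partner of the clock activator, had -0.16 ± 0.05 (unadjusted p 0.00458, adjusted 0.433 in edgeR's test). In the fit without high-fat animals 4 and 1, 7 of the 12 clock slopes were above 0. Of these, 4 were at an unadjusted p under 0.05, where 6.19% of all genes were. By diet Nr1d1, a clock repressor, was at -0.51 ± 0.26 (-0.30 without control 5), and Bhlhe40 had an insulin slope of 0.43 ± 0.24 (0.25 without high-fat animal 4). Of the 11 hypoxia response genes 8 had slopes above 0, none at an unadjusted p under 0.05. Pfkfb3, a glycolytic regulator, was at 0.71 ± 0.37 by diet, and Adm, a vasodilator peptide gene, at 0.46 ± 0.31. Without high-fat animal 4 these were 0.18 and 0.13.

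**Figure D5:**
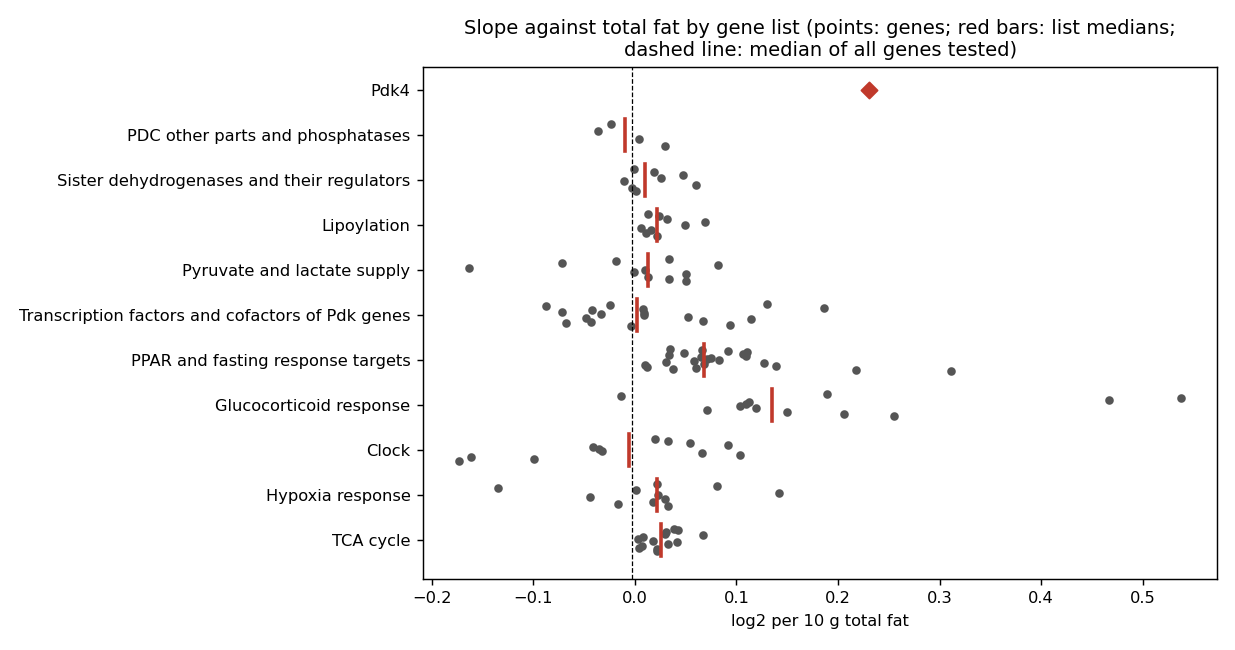
Slope of each gene against total fat (log2 per 10 g) by list, one point per gene, with red bars for list medians, a red diamond for Pdk4 and a dashed line for the median of all genes tested. Pdk4 lies at 0.23, the 23 PPAR and fasting targets all lie above 0, and the glucocorticoid list holds the steepest slopes, Mt2A at 0.54.

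The genes whose log2 levels followed each member most closely over the 11 libraries were ranked by Pearson's r, as a description of libraries that share depth and tissue makeup. For Pdk4 the 8 highest were Ucp3 (r = 0.92), Bag3, Gadd45b, Cct4, Kcns3, Slc25a22, Fgl2 and Hsp90aa1 (r = 0.86). With the 2 libraries farthest from the median of Pdk4 left out these 8 ran from 0.40 for Hsp90aa1 to 0.83 for Cct4. For Pdk2 the 4 highest were Tcta, Bckdk, the kinase of the branched-chain complex (r = 0.91, and 0.85 without the 2 farthest libraries), Cacng1 and Selo. For Pdhb they were Plin5, a lipid droplet protein that links droplets to mitochondria (r = 0.97), Hadh, Tufm and Coq7. For Dld they were Sucla2, a succinyl-CoA ligase subunit of the cycle (r = 0.95), Btbd1, Nadkd1 and RGD1309748, and for Pdha1 they were Abcb10, Abcd2, Acadsb and Nadkd1. Pdk3 was followed by Itm2b (r = 0.97, and 0.86 without the 2 farthest libraries), Pcdh18, Wdhd1 and Man1a1 (0.75 without them). Pdk1 was followed by Fbxo25, Zfp639, Osbpl7 and Cnnm2. Dlat was followed by Nrg1 (r = 0.845, and 0.59 without the 2 farthest libraries), Rrs1, Mad1l1 and Dars.

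Among the members themselves, Pdha1 and Dld had the highest r of the 28 pairs (0.82), and Pdk2 and Pdk3 the lowest (-0.65). Pdk4 had an r of -0.04 with Pdk2, 0.01 with Pdk3 and -0.39 with Pdk1, so no other kinase followed it across the animals. Its r with the subunits was 0.42 for Pdha1, 0.30 for Pdhb, 0.09 for Dlat and 0.34 for Dld. By rank (Spearman's rho) these were 0.645, 0.564, 0.264 and 0.527.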

How the data were processed

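The authors deposited a matrix of raw counts by gene symbol (1 column per animal), made from poly(A) RNA (2 ug of total RNA) sequenced for 36 cycles, per the labels' protocols. FastQC, BWA, HTSeq and edgeR are named per the submitters' processing notes, without versions. Genome build, annotation and strand setting were not given in the sources used here. Counts from close paralogs or overlapping genes may be split or lost. Each column name carries an animal's name, which assigned it to its sample. Animals are numbered here in accession order, which differs from the numbers in the column names for high-fat animals 2 to 5 (3 to 6 there), and high-fat animals 1 to 5 are C91, H1, C25, H20 and A37. High-fat animal 5 has no insulin value and was left out of the insulin fit.

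Genes were kept by edgeR's filterByExpr (10814 kept, 5996 removed, 10820 kept for insulin). Library scaling used trimmed means of M values (TMM, factors 0.897 to 1.12), and CPM values are TMM-scaled. A count of 0 allows up to 3 counts, or 0.195 to 0.295 CPM by library, which covers counting error only. The quasi-likelihood F test of edgeR was adjusted over all genes by Benjamini-Hochberg, with a threshold of 0.05, and fitted on the whole table for the mother's diet and, separately, for insulin, total fat and fat share. SE is the log2 value divided by the square root of F. Log2 levels for balances and likeness used a prior count of 2. The tests were checked on simulated data. Named genes were the 8 members, Pdhx, Pdp1, Pdp2, Pdpr and Bckdk, up to 2 genes per list by diet p and 1 by each slope, and the closest by likeness. One gene that this rule picks is not reported here. Pnpla2 was named after its values were seen, as the single gene called. The members and lists were chosen with earlier results of these data known. Promoters came from RefSeq (GRCr8) by symbol, and no chromosome position of the count table was used.

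Alternatives were RLE, upper quartile and library size scaling, no filter, DESeq2, limma voom, the letter that starts each animal name as covariate, the mother's diet as a covariate of the slopes, leaving out each animal, and, chosen after seeing the data, the column-name numbers as a replicate block for diet and leaving out both libraries highest in neutrophil markers. Fits ran in edgeR 4.0.16, limma 3.58.1 and DESeq2 1.42.0 under R 4.3.3. Descriptions and figures ran in pandas 2.3.3, NumPy 2.4.6, SciPy 1.17.1 and matplotlib 3.10.9 under Python 3.11.15.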

Additional observations from a re-analysis of the deposited data

Results flagged for a closer look

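Of 42 sets of values, 2 held an animal far from the others by Dixon's criterion, which chance alone passes in about 5% of independent sets. Each set was one gene or one balance in one group. The balances reuse the values of the genes, so the sets were not independent. Pdhx, which anchors E3 to the core of the complex, was at 33.6 CPM in control 3, far below the other 5 controls. Pdp2, a phosphatase of the complex, was at 10.2 CPM in control 1, far below the other 5 controls. No member of the set of 8 and no balance was singled out in this way.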

How the results depend on the processing

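No member was called under any alternative. Of the alternative results 784 were rated the same, while 50 fitted values of single members changed sign. For a fitted value, the same meant an unchanged direction and side of the threshold. For a count of genes or members called it meant a similar count, and for a balance a shift smaller than the pooled SD of the animals. The Pdk1 balance difference was so rated although it ran from -0.072 to 0.024 when any one animal was left out. Counts of genes called grew in 7 settings and shrank in 11. DESeq2 called 7 genes by diet, 6 by insulin, 44 by total fat and 62 by fat share, and limma voom called 2 by fat share. The single gene called by fat share was lost (0 genes) when the name letter was a covariate and without both libraries highest in neutrophil markers. It was also lost in 9 of the 11 fits that left out one animal: each of the 6 controls and high-fat animals 1, 4 and 5. Leaving out one animal gave 0 to 3 genes called by insulin and 0 to 2 by fat share. Values near 0 changed sign. With library size scaling, insulin slopes became 0.033 for Pdhb, 0.03 for Dlat and 0.015 for Dld, total fat slopes -0.013 for Pdha1, -0.016 for Dlat and -0.006 for Dld, and fat share slopes -0.002 for Pdk2, -0.011 for Pdha1, -0.006 for Pdhb and -0.006 for Dld. With upper quartile scaling the Dlat total fat slope was -0.003 and the Pdha1 fat share slope -0.002. With the name letter as a covariate Dld by diet was 0.007, and by insulin Pdhb was 0.013 and Dld 0.021. With diet as a covariate Pdhb by insulin was 0.056 and Dlat by total fat -0.002. Without both libraries highest in neutrophil markers, Pdk4 was -0.34 by diet and -0.44 by insulin, Pdk1 0.02 and Pdha1 -0.005 by total fat, and Pdk1 0.023 and Dlat 0.021 by fat share. Leaving out one animal, sign changes occurred by insulin in Pdk2 (-0.157 to 0.0), Pdha1 (-0.23 to 0.029), Pdhb (-0.081 to 0.025), Dlat (-0.1 to 0.015) and Dld (-0.09 to 0.048). By total fat they occurred in Pdk3 (-0.081 to 0.005), Pdha1 (-0.007 to 0.015) and Dlat (-0.006 to 0.017), and by fat share in Pdk3 (-0.054 to 0.009), Pdha1 (-0.004 to 0.018), Pdhb (-0.003 to 0.047), Dlat (-0.011 to 0.022) and Dld (-0.001 to 0.02). The cause was not tested. The labels give no shared replicate numbers, but the deposited column names repeat 5 numbers across the groups. Same-numbered animals come from separate litters, and their deviations correlated at -0.36 to 0.04, with 0 of 5 highest for its own number. No pairing by number was seen, but 5 pairs are too few to tell whether a weaker shared effect was present. With these numbers as a replicate block, over 10 libraries, 0 genes and 0 members were called by diet, 255 genes had an unadjusted p under 0.05 against 389 with no block, Pdk4 was 0.46 and Pdk3 0.845.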
